A study of Mus musculus with 2 samples.

Results

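Prefix matches are transcript models whose introns equal the leading introns of a longer model, so that they share its leading splice junctions and lack those toward its 3′ end. The members described here were selected on their class and read counts: spliced models called incomplete splice match of the prefix kind in both libraries, found in both with the same gene, strand and exact intron chain, with 2 or more reads apiece, and with the glycolytic gene Aldoa left out. There were 188 such models in 154 genes, against 16377 spliced models of annotated genes found in both libraries with at least 2 reads in each. Models with reads of any kind numbered 72146 in replicate 1 and 90261 in replicate 2. The study sequenced long reads of transcripts from gastrocnemius, the large calf muscle, from male B6CASTF1/J mice aged 2 months, first-generation hybrids of C57BL/6J and CAST/EiJ. Each of the 2 libraries was made from 2 µg of RNA, and both belong to 1 group: the design holds no comparison of conditions and allows no p-value. The labels number the males differently but give both the same donor identifier, and the spread between the libraries may therefore be technical in part.

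The 3′ end of a messenger RNA is made by cleavage and addition of a poly(A) tail, usually shortly after an AATAAA hexamer or its common variant ATTAAA. Many genes have several such places. When cleavage happens inside an intron, the upstream exons are joined to an intron-derived last exon and the downstream exons are lost, which can shorten the protein. An intron that is left in place near the end of a gene gives another kind of prefix chain, because the intron count is lower although the molecule reaches the usual end. In long-read data a prefix chain can also come from a read that stops before the end of the molecule or from a primer that anneals to a run of A inside it.

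Replicate 1 held 1132759 reads of mouse transcripts and replicate 2 held 1449423, spike-ins left out. Prefix models numbered 1707 in replicate 1 and 1991 in replicate 2, and 1323 and 1493 of them had a single read. They took 22236 reads in replicate 1 and 20289 in replicate 2, of which Aldoa supplied 17472 and 13946. All 6 skeletal muscle markers were read in both libraries and summed to 332725 reads in replicate 1 and 401306 in replicate 2. The 19 markers of other cell types summed to 714 and 1084 reads, and the adipocyte markers were at 0 in both.

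The sequences that end some of the members are given first, as examples of ends that the class brings together. No intronic end without a hexamer is among those printed, though the class holds some. The sequences are reference bases of GENCODE M21 transcripts (GRCm38, mm10), read 5′ to 3′ on the strand of the gene, and the CAST/EiJ alleles of these hybrids may differ from them. Capitals mark a poly(A) hexamer in the last 30 bases of Pdlim7 (chr13:55506773-55506802, minus strand), Phf10 (chr17:14947738-14947767, minus), Ankrd11 (chr8:122897020-122897049, minus), Sik3 (chr9:46202856-46202885, plus), Lrp6 (chr6:134540774-134540803, minus) and Actn3 (chr19:4861223-4861252, minus).
Pdlim7: agcatggaAATAAAcattctcggccctgct
Phf10: tcaaaAATAAAtaagccaaaattgtttttg
Ankrd11: atgtaaatgaaaataAATAAAccagcttac
Sik3: agggaagttgaAATAAAatggttttcatgg
Lrp6: taaagcttatacaATTAAAaaatataaaaa
Actn3: tgAATAAAgatcaggctgtgggcctctccc
The hexamer stopped 16 bases before the end in Pdlim7, 19 in Phf10, 9 in Ankrd11, 13 in Sik3, 11 in Lrp6 and 22 in Actn3. The next 2 members, Lats1 (chr10:7697620-7697649, plus) and Trdn (chr10:33233897-33233926, plus), stopped at the last base of a coding exon, and their last 30 bases held neither hexamer.
Lats1: ccaggcctattaatgccaccatgaaaccag
Trdn: aacctgctttgtcaacaacggcccttgaag
For Son (chr16:91654700-91654719, plus) the 20 bases that follow the end inside the same exon are shown, with every A in capitals, and 16 of them were A.
Son: AAAAAgcAcAAAAAcAAAAA

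The class held several kinds of end, and its name describes only some of them. For 144 members the chain was the beginning of an annotated transcript, called the parent here; where several qualified, the one with the most reads was used. The 5′ start of the member in replicate 1 lay within 50 nt of the parent's start in 108 of the 144. In 60 of the 144 the last exon ran past the parent's splice donor and stopped inside the following intron in both libraries. In 47 it ran through that intron into or beyond the next exon, in 25 it stopped within the exon or within 10 nt of its donor, and in 12 the kind differed between the libraries. The other 44 members were prefixes of unannotated chains alone. Of the 47 models that ran through the intron, 28 came within 50 nt of the parent's own 3′ end in both libraries, so these kept an intron rather than ending early.

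**Figure D1:**
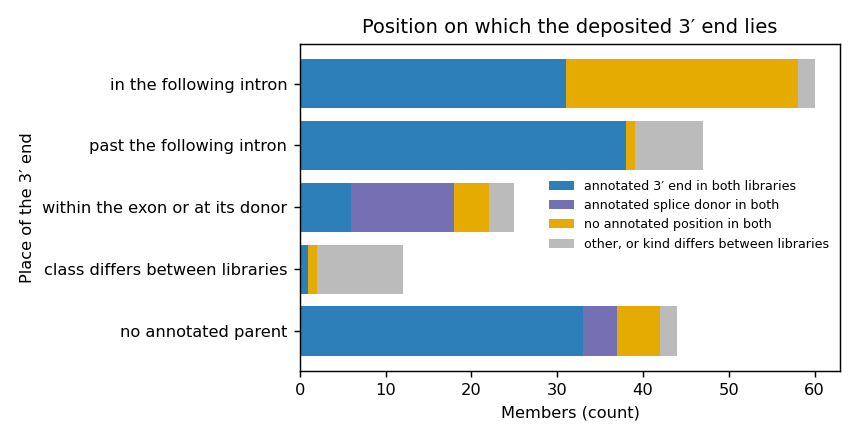
Members by the place of their 3′ end (rows), with the number of members on the horizontal axis, split by the annotated position on which the deposited end lies. Annotated 3′ ends held 31 of the 60 ends inside the following intron and 38 of the 47 past it, while 12 of the 25 ends within the exon or at its donor lay exactly on a donor in both libraries.

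The deposited ends mostly lay on annotated coordinates. In both libraries 109 members ended exactly on the 3′ end of an annotated transcript of the gene, 16 exactly on an annotated splice donor and 38 on no annotated exon edge. Only transcripts whose 3′ end the annotation marks as not found supplied the end of 2 of the 109, in Trdn and Golga4. Of the 188 members, 147 (78.2%) had ends within 10 nt of each other in the 2 libraries, and 36 had ends over 100 nt apart. The files give 1 end per model and no reads, so identical ends at an annotated position do not show where single reads stopped. Among the 38 ends at no annotated position, 27 (71.1%) were within 10 nt between the libraries and 19 were identical.

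Other spliced classes, matched in the same way, lay on annotated ends more often, though the definition of the classes fixes part of this. Annotated 3′ ends held 58.0% of the prefix members in both libraries, against 89.2% of 3032 suffix models (which keep the 3′ introns), 88.0% of 2001 models joining annotated splice sites in a new combination and 84.6% of 1224 with an unannotated splice site. Ends at an annotated donor made up 8.51% of the prefix members, against 0 of the suffix models, 0.150% of the new combinations and 0 of the models with an unannotated site. Agreement within 10 nt among ends at no annotated position was 71.1% in the prefix members, against 66.3%, 62.5% and 74.2% in those classes.

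Ends inside the following intron were the most frequent kind, and 12 of these models led their gene in both libraries. Some of those genes had few reads, as Hira with 2 of 2 gene reads in replicate 1 and 4 of 4 in replicate 2. The 60 models lay in 58 genes and held 379 reads in replicate 1 and 565 in replicate 2. Their end lay at a median of 1013 nt past the donor in replicate 1, inside an intron with a median length of 3066 nt. The ends of 48 of 55 with a coding parent came before the parent's stop codon in both libraries, so the matched coding sequence was incomplete. Where an annotated transcript covered the 50 nt before the end, AATAAA or ATTAAA was found in 29 of 37 (78.4%). The share was 38.1% over 21216 distinct annotated 3′ ends of genes with 20 or more reads per library, used by reads or not. Most of the 37 windows lay at annotated 3′ ends, where 24 of 30 held a hexamer. Of the 27 ends at no annotated position in both libraries only 5 could be read, and 3 held one. Of the 31 ends that lay on an annotated 3′ end, 16 belonged to a transcript annotated as protein coding and 8 only to a transcript annotated as retained intron without a coding one.

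**Figure D2:**
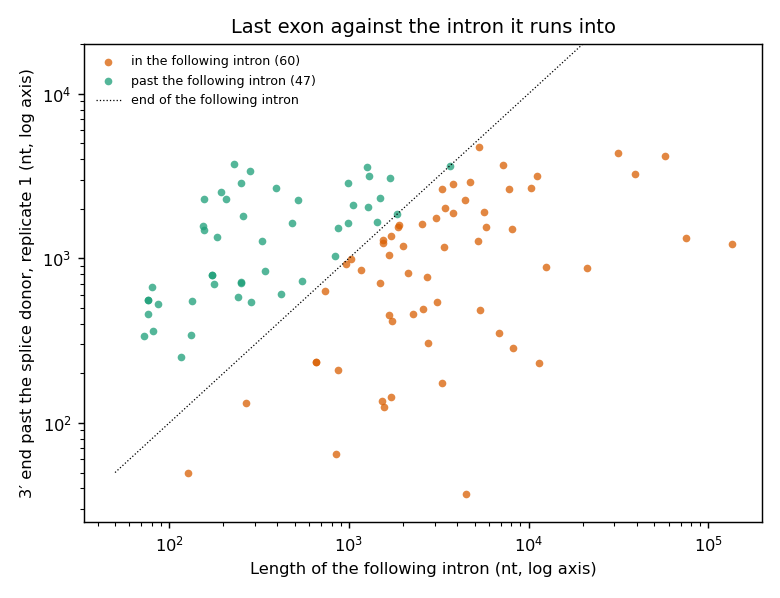
Distance of the 3′ end past the parent's splice donor in replicate 1 (vertical, nt, log axis) against the length of the intron that follows (horizontal, nt, log axis), a point per member. The 60 models that stop inside the intron lie below the dotted line, over introns with a median of 3066 nt, and the 47 that run through it lie on or above it, over introns with a median of 252 nt.

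Synpo had the most reads among the intronic ends. It encodes synaptopodin, an actin-binding protein known from kidney podocytes and dendritic spines. The model held 43 reads in replicate 1 and 86 in replicate 2, which were 49.4% and 53.4% of the gene's reads, and was the leading Synpo model in both. With reads of the genomic class left out of the gene total, the shares were 78.2% and 54.4%, so that the library with the higher share changed. It spliced 1 of the 2 introns of the parent and ended 1907 nt into the following 5624-nt intron, at the annotated end of a coding transcript, while the parent itself had 1 read in each library. The 50 nt before the end in replicate 1 held neither hexamer.

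Lrp6, a co-receptor of Wnt signalling, kept only the first of 22 introns. The model had 14 reads in replicate 1 and 31 in replicate 2, or 56.0% (Wilson 95% interval 37.1 to 73.3) and 54.4% (41.6 to 66.6) of the gene. The full-length parent had 2 and 12 reads, fewer than the short model in both libraries. The short model measured 1595 nt in replicate 1, against 9368 nt of the parent. Its end lay 878 nt into a 21058-nt intron, where the annotation has the end of a retained-intron transcript, and the last 30 bases held ATTAAA, the variant hexamer shown above.

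Phf10, Ankrd11 and Sik3 also ended inside an intron. Phf10, a subunit of a BAF-type chromatin remodelling complex, had 13 reads in replicate 1 and 45 in replicate 2, or 26.0% and 47.9% of the gene, in a model with 8 of 11 introns that ended 2822 nt past the donor. The annotated transcript with that end is listed as a target of nonsense-mediated decay. The parent of Phf10 had 23 reads in replicate 1 and 31 in replicate 2, and the short model led the gene in replicate 2 only. Ankrd11, a chromatin regulator, had 16 and 18 reads (38.1% and 31.6%) in a model with 6 of 12 introns, against 0 and 3 reads of its parent. Sik3, a salt-inducible kinase, had 12 and 16 reads (48.0% and 48.5%) with 13 of 24 introns, against 4 and 7 of the parent. All 3 ended at the same annotated position in both libraries.

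Further intronic ends led their genes. Luc7l2, which binds the U1 splicing particle, had 17 reads in replicate 1 and 22 in replicate 2 (31.5% and 35.5%) in a model that lacked 1 of 9 introns, and its ends lay 781 nt apart in the 2 libraries. Slc25a23, a mitochondrial carrier of ATP-Mg and phosphate, had 16 of 19 and 19 of 26 gene reads (84.2% and 73.1%), 135 nt past the donor of the exon before the last intron. Gm10605, a long noncoding RNA, had 15 of 28 gene reads in replicate 1 and 15 of 25 in replicate 2. Gprc5c, an orphan receptor, had 24 of 72 and 21 of 100 gene reads and led in replicate 1 only.

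Highly read metabolic genes had intronic ends too, at very small shares. Ckm, the muscle creatine kinase, had 34 reads in replicate 1 and 25 in replicate 2, or 0.0420% and 0.0278% of 80874 and 90068 reads of the gene. The model held 4 of 7 introns and stopped 1606 nt into a 2548-nt intron, at the same base in both libraries although no annotated position lies there. Ckmt2, the mitochondrial creatine kinase, had 4 reads in each library at an end 65 nt past the donor, and Eno3, the muscle enolase, had 2 and 4 reads with ends 60 nt apart.

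Models that ran through the following intron had small shares and mostly kept the usual end. The 47 models lay in 42 genes and held 330 reads in replicate 1 and 397 in replicate 2, with a median share of 1.79% and 1.58%. In 42 of them a single intron was left in place, the intron had a median length of 252 nt, and 41 of the 47 with a coding parent ended past the parent's stop codon in both libraries. AATAAA or ATTAAA was found in the 50 nt before the end of 39 of 43 that could be read (90.7%), against 38.1% of the annotated 3′ ends. None of these models led its gene in both libraries.

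Actn3, the alpha-actinin of fast-fibre Z-discs, had the most reads in this kind. It held 94 reads in replicate 1 and 78 in replicate 2, which were 0.681% and 0.652% of the gene, against 12231 and 10611 reads of the parent. The model spliced 19 of 20 introns, left the last intron of 81 nt in place and ended 7 nt before the parent's end. Myot, whose product myotilin crosslinks actin at the Z-disc, had 22 and 15 reads (1.53% and 0.726%) with its last 172-nt intron in place. Ak1, an adenylate kinase, had 20 and 14 reads (0.327% and 0.210%) with its last 155-nt intron in place.

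Other members with an intron kept had fewer reads. Acta1, skeletal actin, had 6 reads in replicate 1 and 5 in replicate 2 (0.00880% and 0.00674%) with a 76-nt intron kept. Tpm3, a slow-fibre tropomyosin, had 4 and 20 reads (0.662% and 1.11%) with an 839-nt intron kept. Ldha, lactate dehydrogenase, had 3 and 5 reads, Uqcrc1, of respiratory complex III, had 4 and 5, and Eif4a2, a translation initiation helicase, had 2 and 3. Higher shares came from genes with fewer reads: Xirp1, which encodes an actin-binding repeat protein, had 5 and 8 reads (13.5% and 10.1%), and Pnisr, an SR-related protein, had 5 and 8 (22.7% and 26.7%). The RNA helicase gene Ddx5 kept 2 introns, in 5 and 9 reads (2.15% and 2.18%).

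Ends within the exon or at its donor held a poly(A) hexamer less often than ends in or past the following intron. The 25 models lay in 23 genes and had 506 reads in replicate 1 and 426 in replicate 2. AATAAA or ATTAAA was found in 6 of 23 windows that could be read (26.1%), against 38.1% of the annotated 3′ ends. At least 12 A in the 20 bases after the end were found in 4 of 15. In 12 members the end was exactly an annotated donor in both libraries, a position where a spliced molecule would continue into the next exon.

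Trdn supplied most of these reads. It encodes triadin, which holds calsequestrin to the calcium release channel of the sarcoplasmic reticulum. The model with 9 of the 37 introns of the longest transcript had 322 reads in replicate 1 and 258 in replicate 2, or 38.3% (Wilson 95% interval 35.1 to 41.6) and 18.6% (16.6 to 20.7) of the gene. These intervals do not overlap, and the model was the leading one in replicate 1 but not in replicate 2. It stopped at the last base of its 10th exon, a 23148-nt intron before the next exon of the parent. The parent had no read in either library. The annotated transcript with that end, Trdn-206, is one of those whose 3′ end is marked as not found. Another 3 Trdn members with 5, 10 and 20 introns had 2 to 18 reads per library.

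Lats1, a kinase of the Hippo pathway, was read almost only as its prefix. It had 37 of 37 gene reads in replicate 1 and 34 of 41 in replicate 2, or 100% (90.6 to 100) and 82.9% (68.7 to 91.5). The model held 2 of 7 introns, ended on the donor of its last exon, and measured 865 nt against 7209 nt of the parent, which had 0 and 1 reads. No annotated transcript ends there. Sec62, of the protein translocation machinery, had 21 of 66 and 9 of 75 gene reads in a model with 3 of 7 introns that also ended on a donor. Eif2s2, a subunit of translation initiation factor eIF2, had 6 and 2 reads with an end 32 nt before the donor in replicate 1.

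Son and Psmd1 stopped inside an exon. Son, a splicing cofactor of nuclear speckles, had 30 reads in replicate 1 and 13 in replicate 2, or 65.2% (50.8 to 77.3) and 34.2% (21.2 to 50.1) of the gene. Both libraries placed the end at the same base, 5881 nt before the donor of that long coding exon, at no annotated position, and the model measured 362 nt against 7945 nt of the parent. The A-rich bases shown above follow that end, and whether reads of the model began there was not tested, since the files used here hold no reads. Psmd1, a subunit of the proteasome's regulatory particle, had 20 and 19 reads (9.95% and 7.54%), 51 nt before the donor, at the end of an annotated transcript listed as a target of nonsense-mediated decay. The parent of Psmd1 had 152 and 209 reads. Of the 20 bases after the Psmd1 end, 18 were A, and whether reads began there was not tested either.

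Members without an annotated parent held most of the reads only with Atp2a1 counted. These 44 models lay in 28 genes and had 1597 reads in replicate 1 and 2008 in replicate 2. Atp2a1 supplied 888 and 1174 of them, and members of all kinds without Atp2a1 had 1984 and 2326. The 44 were called prefixes because a longer unannotated chain was present. The longer model with the most reads was taken in each library on its own, and in 14 of the 44 it had fewer reads than the member in both. Of the 44, 33 ended at an annotated 3′ end in both libraries, 20 had as their last intron the last intron of an annotated transcript, and 30 had exactly 1 intron that no annotated transcript of the gene has. In replicate 1, 26 of the 44 ended over 50 nt before the gene's farthest annotated end and 18 came within 50 nt of it or passed it.

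Pdlim7 had the highest share of these. It encodes a PDZ and LIM domain protein that links the actin cytoskeleton to signalling proteins. The model had 458 reads in replicate 1 and 369 in replicate 2, or 85.6% (82.4 to 88.3) and 79.2% (75.3 to 82.6) of the gene, and led in both. The most-read longer unannotated model had 5 reads in replicate 1 and 6 in replicate 2. It was of a different class in each: a new combination of annotated splice sites in replicate 1, and one with an unannotated splice site in replicate 2. The 6 introns of the Pdlim7 member included 1 unannotated intron, and the last of them was the last of Pdlim7-203. The member ended at the annotated end of the same transcript, 10978 nt before the gene's farthest annotated end. Ehbp1l1, an EH domain-binding protein of membrane traffic, had 78 and 211 reads (23.7% and 37.5%) over 19 annotated introns and ended at the gene's farthest annotated end. Its most-read longer model had 5 reads in replicate 1 and 6 in replicate 2, again of a different class in each. Dus1l, a dihydrouridine synthase family member, had 22 and 35 reads (35.5% and 29.2%), against 1 and 3 reads of the most-read longer model of each library. Ccpg1, a receptor for autophagy of the endoplasmic reticulum, had 16 and 23 reads (14.5% and 13.4%) over 9 introns, and its ends lay 2407 nt apart in the libraries, at annotated 3′ ends in both.

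Atp2a1, the SERCA1 calcium pump of fast fibres, supplied 10 members. Together they had 888 reads in replicate 1 and 1174 in replicate 2, which were 30.9% and 33.5% of all member reads. A model with 20 introns had 353 and 603 reads, or 0.216% (0.195 to 0.240) and 0.297% (0.274 to 0.321) of the gene, and ended at the annotated 3′ end. A model with 7 introns had 438 and 462 reads (0.268% and 0.227%) and ended at no annotated position, 424 nt apart in the 2 libraries. Both were prefixes of the leading unannotated Atp2a1 chain, with 154767 and 194246 reads. The other 8 Atp2a1 members had 2 to 32 reads per library. Myh4, the fastest myosin heavy chain, had 3 members of 2 to 6 reads per library, and 2 of them ended on an annotated donor in both libraries.

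The 12 models whose kind of end differed between the libraries had 60 reads in replicate 1 and 104 in replicate 2. Zfp106, a zinc finger protein needed for neuromuscular upkeep in mice, had 19 and 36 reads, with an end 607 nt past the donor in replicate 1 and 2 nt past it in replicate 2. Fam120aos, a noncoding transcript, had 9 of 10 and 17 of 18 gene reads, and its end moved by 616 nt. Smtn, which encodes the smooth-muscle protein smoothelin, had 3 and 10 reads with ends 3015 nt apart. Asb14, a ubiquitin ligase adaptor of muscle, had 3 and 4 reads with ends 3516 nt apart, and Gys1, the muscle glycogen synthase, had 3 and 2 with ends 835 nt apart.

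**Figure D3:**
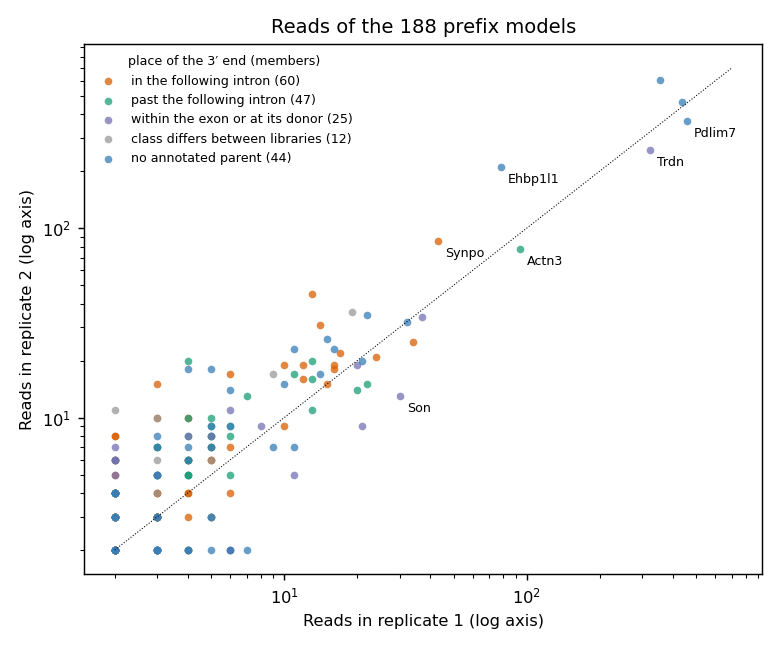
Reads of each of the 188 members in replicate 1 (horizontal, log axis) and replicate 2 (vertical, log axis), coloured by the place of the 3′ end, with the line of equal reads dotted. The leading members of Atp2a1, Pdlim7 and Trdn have 258 reads or more in both libraries, and 73 members have a lower count of exactly 2.

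Read counts of the members were low outside a few genes. They summed to 2872 reads in replicate 1 and 3500 in replicate 2, or 0.254% (0.244 to 0.263) and 0.241% (0.234 to 0.250) of the mouse reads, with a mean of 0.248% ± 0.00853 (SD, n = 2). The 5 leading members held 57.4% and 54.4% of these reads. At the threshold, 73 members had a lower count of exactly 2, at most 11 reads in the other library and a median share of 3.46%. Just outside it, 321 matched prefix chains had 1 read in at least 1 library, at most 10 in the other and a median share of 1.72%.

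The median share of the gene's reads was 4.74% in replicate 1 and 4.00% in replicate 2. In both libraries 25 members led their gene, but only 10 of these lay in genes with 20 or more reads per library. How often matched spliced models of other classes led their gene is not given here. In genes with 20 or more reads per library, which held 151 members, the median was 2.41% and 2.26%. Of the 151, 5 had a mean share of at least 50%, 28 lay between 10% and 50%, 67 between 1% and 10%, and 51 below 1%. Their median mean share was 6.19% for ends inside the following intron and 8.37% for ends within the exon or at its donor. It was 1.38% for ends past the following intron and 1.04% without an annotated parent.

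**Figure D4:**
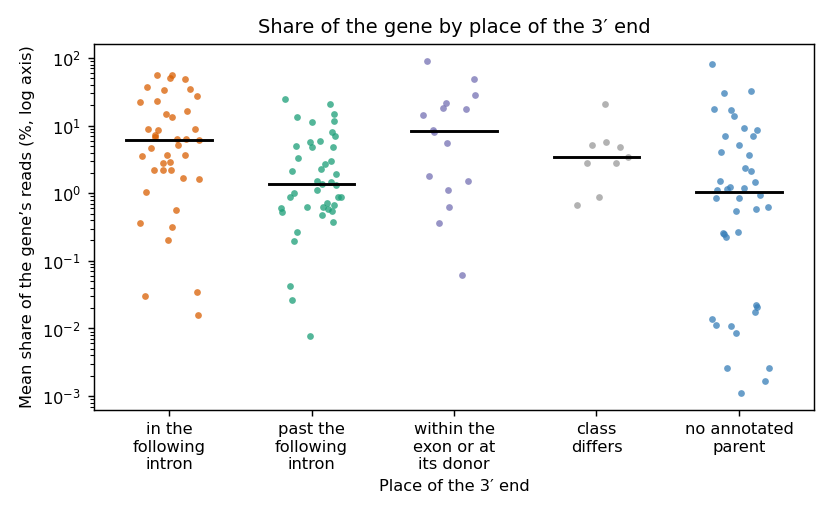
Mean share of the gene's reads over the 2 libraries (vertical, %, log axis) of the 151 members in genes with 20 or more reads per library, by the place of the 3′ end, with the median as a bar. Medians are 6.19% inside the following intron, 1.38% past it, 8.37% within the exon or at its donor, 3.46% where the kind differed and 1.04% without an annotated parent, and each kind spans more than an order of magnitude.

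**Figure D5:**
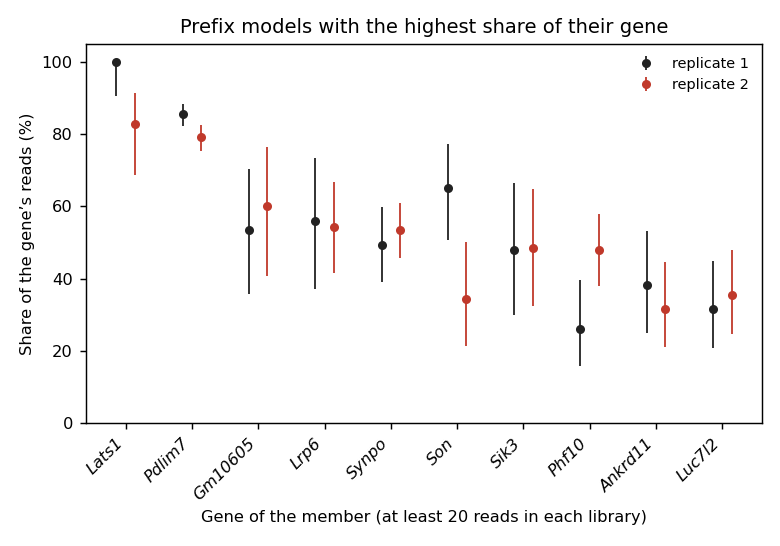
Share of the gene's reads (vertical, %) in replicate 1 and replicate 2 for the 10 members with the highest mean share among genes with 20 or more reads per library, with Wilson 95% intervals. Lats1 and Pdlim7 lie above 79% in both libraries, and of the 10 members only Son has intervals that do not overlap.

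The libraries differed in a few members. Of 44 members with 20 or more summed reads, 8 (18.2%) lay more than 2-fold apart per mouse read, 2 higher in replicate 1 and 6 higher in replicate 2, beside 11.5% of the 7184 matched spliced models of the same minimum (198 with more in replicate 1 and 629 with more in replicate 2). By share of the gene's reads, replicate 1 was higher for 110 of the 188 members and replicate 2 for 75. The same count over all matched spliced models is not given here. Median shares were higher in replicate 1 in other classes too: 1.75% against 1.51% for suffix models and 7.10% against 6.25% for new combinations. For models with an unannotated splice site they were 3.03% and 2.53%. In reads per mouse read, the ratio of replicate 1 over replicate 2 was 2.95 for Son and 2.99 for Sec62. At the other side it was 0.473 for Ehbp1l1, 0.370 for Phf10 and 0.256 for Tpm3. Wilson intervals of the share did not overlap between the libraries for 5 members (2.66%), in Atp2a1, Trdn, Ehbp1l1, Son and Sec62, beside 1.95% of all matched spliced models. In whole muscle, fewer cells of a type and less RNA per cell cannot be told apart.

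The number of genes that held a member was counted in each gene list, with no test between lists. Of the 4298 annotated genes with 20 or more reads per library, 118 held a member, or 2.75%. Of 67 sarcomere and Z-disc genes 12 did (17.9%), as did 5 of 43 calcium handling genes (11.6%), 6 of 29 RNA-binding and splicing genes (20.7%), 4 of 31 glycolysis and glycogen genes (12.9%), 3 of 11 genes of phosphocreatine and adenine nucleotides (27.3%), 3 of 35 protein turnover genes (8.57%) and 2 of 31 translation genes (6.45%). Only 1 of 48 electron transport and ATP synthase genes did (2.08%), and 0 of 45 genes of the citric acid cycle and fatty acid oxidation. Gene depth moves with this count: genes with a member had a median of 285 summed reads against 126 over all 4298, and its part in the result was not tested. The electron transport genes had a median of 1665 summed reads and the citric acid cycle list 810, against 1026 in the sarcomere list. The median was 1043 for glycolysis, 720 for phosphocreatine, 472 for calcium handling, 454 for protein turnover and 287 for translation. It was 118 for RNA binding and splicing, 161.5 for matrix genes and 80 for genes of other cell types. None of the 14 matrix genes and none of the 11 genes of endothelium, blood and other cell types with at least 20 reads held a member.

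Sequence around the ends could be read only where an annotated transcript covered it. AATAAA or ATTAAA, searched on the transcript strand, was found in the last 50 nt in 71.4% of 147 members in replicate 1 and 71.6% of 148 in replicate 2, against 38.1% of 21216 distinct annotated 3′ ends of genes with 20 or more reads per library. At least 12 A in the 20 nt after the end were found in 15.9% of 44 members in replicate 1 and 16.0% of 50 in replicate 2. The same was true of 5.32% of 9620 annotated ends and 0.989% of 704443 windows of 20 nt along the longest transcript of each gene. The annotated ends were taken by gene, whether or not reads used them, while every member end belongs to a model with reads. The percentages therefore describe unlike sets. A match is a description of these letters, and ends at annotated positions make up most of the windows read.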

How the data were processed

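Per the file headers and labels, the authors built transcript models against GENCODE M21 on mm10, 1 library at a time, and deposited whole-number read counts per model with no normalisation, and the models' exon coordinates. Which aligner, versions and filters they used was not given in the sources used here. Most deposited 3′ ends lie exactly on annotated positions, which limits what the coordinates show about single reads. Models were matched by gene, strand and intron chain; 1 prefix chain of a locus without an annotated gene was left out. The members and gene lists were chosen with earlier results of these data known. Shares are of all reads of the gene, with Wilson 95% intervals, which cover counting error only, as the reads carry no molecular identifiers. Shares and read counts were not adjusted for transcript length. Many members were much shorter than their parents, and the effect of length on the counts was not tested. No test was made, since the libraries form 1 group. Sequences were read from M21 transcripts in place of a genome; those of a few members are printed, and some are not reported here. Python 3.11.15, statsmodels 0.14.6 and matplotlib 3.10.9 were used. Placement of ends was tested on simulated models. Named genes were the 25 members with most reads, the 10 with the highest shares, and the 3 with most reads in each list and kind of end; others named as examples were chosen after their values were seen.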

Additional observations from a re-analysis of the deposited data

How the results depend on the processing

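The results were recomputed under other settings, of which leaving out Atp2a1, keeping the unannotated locus and using only ends at no annotated position were chosen after seeing the data. With at least 5 reads in each library 65 members were left, holding 0.213% of mouse reads, with a median share of 10.5%; 42.4% of those with an annotated parent ended in the following intron, 73.8% lay within 50 nt of an annotated end, 77.9% of windows held a hexamer and 27.5% were A-rich after the end. The main values of these were 188 members, 0.248%, 4.37%, 45.1%, 61.4%, 71.5% and 16.0%. With at least 1 read there were 509 members with 0.283% of reads. Keeping Aldoa gave 1.4996% of reads and hexamers in 71.7%. Leaving out Atp2a1 gave 0.168% of reads, a median share of 5.38%, hexamers in 70.4% and A-rich sequence in 16.3%. The median share was 2.34% in genes with at least 20 reads. A donor tolerance of 50 nt put 43.8% in the following intron. Ends agreed between libraries in 69.1% at a tolerance of 0 nt and in 71.1% of ends at no annotated position, against 78.2%. Hexamers were found in 65.1% of windows of 30 nt, and AATAAA alone in 61.7%. A-rich sequence was found in 18.2% with 10 A of 20 and 13.8% with 15. With at least 50 summed reads 2 members were over 2-fold apart, against 8. Leaving out either library gave 0.241% to 0.254% of reads, a median share of 4.00% to 4.74%, 44.4% to 45.8% in the following intron, 60.6% to 62.2% near an annotated end, hexamers in 71.4% to 71.6% and A-rich sequence in 15.9% to 16.0%. No model had a single exon. The remaining settings moved values by less than the spread between libraries, the counting interval or 1.5 times a count. The causes were not tested. Most members had under 5 reads in at least 1 library, which limits what their shares show. No paired analysis was possible because there is only 1 group.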
